A study of Mus musculus with 130 samples.

Results

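Nr5a2, also called LRH-1, is carried by 6 annotated transcripts in mouse, and each was followed here as its own row across single embryos of the 2-cell stage. The members are the transcript rows of the deposited kallisto table that the authors' deposited comparison assigns to the symbol Nr5a2, 6 of 119353 mouse transcripts. An extra row stands under the Nr5a2 gene identifier itself. No source used here gives the sequence behind that row, so it is reported only beside the transcripts. The study cultured B6129F1 zygotes, isolated 5 hours after fertilization, from hour 6 in KSOM medium with 10 µM SR1848 (n = 80 embryos) or with 0.1% DMSO, its solvent (n = 50), in wet chambers with no oil layer. The control titles carry the condition NT, which the labels do not spell out, while their treatment field gives DMSO, and the treatment field was followed. SR1848 is a small molecule used as an inhibitor of Nr5a2, and both groups are of that strain, with no change of genotype named. Each embryo gave 1 library by Smart-seq2, which amplifies whole cDNA molecules after oligo-dT priming. The design text lists 56 controls, of which 6 were not analysed here. The labels do not tie embryos to mothers, drops or plates. The p-values therefore describe how these libraries vary, and some of that variation may be technical.

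Nr5a2 is a nuclear receptor of the NR5A subfamily that binds DNA as a monomer. It is best known for bile acid synthesis in liver, for steroid synthesis in ovary, and for holding Pou5f1 active in pluripotent cells. In the early embryo it has been studied as an activator of the zygotic genome. Alternative starts and skipped exons change the part of the receptor that lies before the DNA-binding domain.

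The gene (ENSMUSG00000026398) lies on chromosome 1, from base 136842571 to base 136960448 on the minus strand (GENCODE M21, mm10), and 0 other genes overlap it. Its coding transcripts begin in 3 separate regions. Nr5a2-201 (ENSMUST00000027649.13, 9 exons, 4733 bases) starts at base 136960448 and encodes 560 amino acids. Nr5a2-203 (ENSMUST00000192357.5, 8 exons, 1859 bases) starts 68 bases further in, skips the exon of 63 bases that is second in Nr5a2-201, and encodes 539. Nr5a2-205 (ENSMUST00000192929.5, 9 exons, 1756 bases) has a first exon of its own 6818 bases downstream of the Nr5a2-201 start and encodes 499. Nr5a2-202 (ENSMUST00000168126.6, 7 exons, 3446 bases) starts further downstream, at base 136949562, and has the same coding sequence of 1497 bases as Nr5a2-205. The remaining pair are Nr5a2-206 (ENSMUST00000195428.1, 679 bases), whose annotated coding sequence is incomplete, and Nr5a2-204 (ENSMUST00000192587.1, 621 bases), a retained intron with no coding sequence. GENCODE gives Nr5a2-201 and Nr5a2-205 its best transcript support level, 1, and Nr5a2-203 its lowest, 5.

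**Figure D1:**
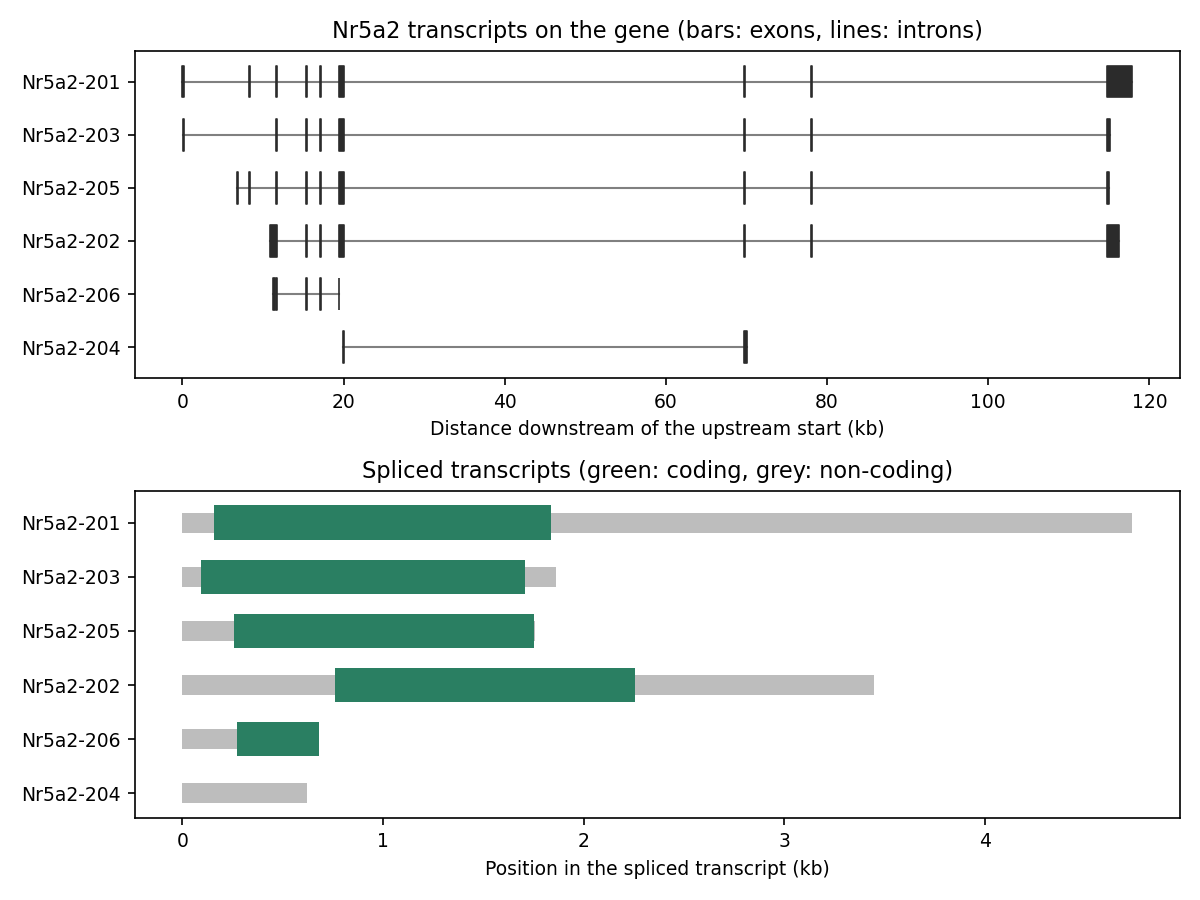
Exons of the 6 Nr5a2 transcripts against distance from the Nr5a2-201 start in kb (top; bars are exons and lines are introns), and the same transcripts spliced, against position in kb (bottom; green is coding, grey is non-coding). The first exons differ, and the coding parts end alike in the 4 forms with a complete coding sequence. After its last amino acid codon Nr5a2-201 carries 2895 bases, stop codon included. Nr5a2-205 carries 3 there, the stop codon alone, so no 3′ untranslated region is annotated for it.

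The coding sequences below show how the proteins of the 3 abundant forms differ at their beginning. They were read from the GENCODE M21 transcripts. In the first, from coding base 35 of Nr5a2-201, capitals mark the exon of 63 bases (21 codons) that Nr5a2-203 skips.
Nr5a2-201: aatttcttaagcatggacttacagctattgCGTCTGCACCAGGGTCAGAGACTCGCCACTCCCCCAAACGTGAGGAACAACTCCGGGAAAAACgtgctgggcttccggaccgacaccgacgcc
In Nr5a2-203 the flanking exons are joined directly, and capitals mark the 6 bases across that junction.
Nr5a2-203: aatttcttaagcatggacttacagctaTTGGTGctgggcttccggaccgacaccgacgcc
The coding sequence of Nr5a2-205, shared with Nr5a2-202, begins at the start codon in capitals, which lies inside the coding sequence of the longer forms.
Nr5a2-205: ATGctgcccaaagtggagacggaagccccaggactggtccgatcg
Nr5a2-201 thus has 183 more coding bases (61 codons) than Nr5a2-205 at its 5′ end, and Nr5a2-203 has 120 more (40 codons).

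How well kallisto, which matches reads by 31-mers, can separate the forms from each other depends on their unique sequence. Uniqueness was counted among the annotated Nr5a2 transcripts only. Nr5a2-201, Nr5a2-202, Nr5a2-203 and Nr5a2-205 each have 124 31-mers that also occur in other genes. The row under the gene identifier was left out, since its sequence is not known here. The unique shares below are therefore upper limits, and any division of reads with that row or with other genes was not measured. Nr5a2-201 has 38.3% of its 31-mers to itself within the gene and Nr5a2-202 15.05%. Nr5a2-205 has 136 such 31-mers (7.88%), around its own first exon. Nr5a2-203 has only 29 (1.59%), those across the junction shown above, so its estimated count rests on the least sequence of the 3 abundant forms. Most of the 31-mers that Nr5a2-201 has to itself lie in its last exon. This exon runs to base 136842571, and that of Nr5a2-202 only to base 136844276. Reads from that stretch do not show where a message started. The level and share of Nr5a2-201 are therefore no measure of the upstream start.

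The windows of 250 bases before the Nr5a2-201 start and before the Nr5a2-205 start are shown because the transcripts from both starts were lower in the treated embryos. The sequences are from RefSeq on GRCm38.p6, on the strand of the gene. Capitals mark matches, on either strand, to the motifs searched. These were TATAAA as the TATA box, CCAAT as the CCAAT box, AGGTCA as the core of nuclear receptor sites and the longer AAGGTCA, which contains it, as the form with the extension that Nr5a receptors prefer. The others were GATAA as the GATA core and GGGCGG as the GC box.
Upstream start, chr1:136960449-136960698: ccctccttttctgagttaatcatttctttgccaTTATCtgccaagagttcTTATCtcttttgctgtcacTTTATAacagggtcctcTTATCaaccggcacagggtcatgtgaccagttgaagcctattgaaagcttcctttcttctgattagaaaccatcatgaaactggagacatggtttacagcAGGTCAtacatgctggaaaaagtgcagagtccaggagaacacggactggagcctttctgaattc
Middle start, chr1:136953631-136953880: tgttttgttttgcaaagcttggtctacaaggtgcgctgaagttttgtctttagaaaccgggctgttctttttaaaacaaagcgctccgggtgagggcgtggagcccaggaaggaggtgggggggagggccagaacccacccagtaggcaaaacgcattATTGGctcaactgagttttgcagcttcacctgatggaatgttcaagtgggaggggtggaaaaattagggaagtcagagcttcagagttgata
The upstream window (43.2% G or C) holds AGGTCA 64 bases before the start. Of 32851 RefSeq promoter windows of the same length, 14.02% hold AGGTCA. It also holds GATAA on the opposite strand at 217, 200 and 164 bases before the start (22.6% of promoters hold it at least once) and TATAAA, also on the opposite strand, at 181 bases (12.4% of promoters). The middle window (49.6% G or C) holds CCAAT on the opposite strand at 92 bases (33.8% of promoters). Neither window holds AAGGTCA (4.08% of promoters) or GGGCGG (32.7%). These are matches of letters and say nothing of binding.

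In control embryos the form with the middle start, Nr5a2-205, was the main Nr5a2 transcript. It stood at 55.1 ± 18.7 CPM (SD, n = 50), where CPM is the estimated count relative to the library total after TMM scaling (trimmed mean of M-values). The control values ran from 16.5 to 108 CPM with a median of 52.1. In the SR1848 embryos Nr5a2-205 stood at 4.84 ± 5.43 CPM (n = 80), running from 0 to 25.6 with a median of 3.22. The groups overlapped little: 76 of 80 treated embryos were below every control, and all 80 were below the control median. The mean was 11.4-fold lower with SR1848, and the fitted log2 fold change was -3.50 (SE 0.289, edgeR adjusted p = 5.1e-22). Each library is a whole embryo, so fewer cells with the transcript and less transcript per cell cannot be told apart.

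Nr5a2-203, which starts upstream and skips the exon of 63 bases, fell furthest among the forms that could be tested. Controls ran from 11.7 to 59.2 CPM with a median of 28.8 (mean 29.7 ± 11.3, n = 50). Treated embryos ran from 0 to 9.99 CPM with a median of 0.0242 (mean 1.48 ± 2.36, n = 80). Every treated embryo was below every control, a separation that 312 of the 25761 transcripts tested (1.21%) showed in this direction. The mean was 20.1-fold lower and the fitted log2 fold change was -4.30 (SE 0.367, adjusted p = 4.75e-21). It passed the filter on low counts mainly through the controls, since 39 of 80 treated embryos were at 0. With no filter its log2 fold change was -4.29 (SE 0.364).

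Nr5a2-201, the full-length form with the long 3′ untranslated region, also fell, but the groups overlapped widely. Controls ran from 0 to 36.9 CPM with a median of 12.01 (mean 13.1 ± 7.37). Treated embryos ran from 0 to 20.3 CPM with a median of 2.35 (mean 3.62 ± 4.28). None of the treated embryos was below every control, since 1 control had no count, but 76 of 80 were below the control median. The mean was 3.64-fold lower and the fitted log2 fold change was -1.86 (SE 0.330, adjusted p = 2.88e-07).

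All 3 transcripts that passed the filter on low counts were thus lower with SR1848. A transcript that is abundant in controls alone can pass that filter. Most of the transcriptome differed between the groups too: 73.6% of the 25761 transcripts tested passed the same threshold in one direction or the other, so being called does not set these members apart. A fall as large as that of Nr5a2-203 was fitted for 415 of the transcripts tested (1.61%), as large as that of Nr5a2-205 for 1053 (4.09%) and as large as that of Nr5a2-201 for 4342 (16.9%). TMM gave 9930 transcripts higher and 9029 lower, and scaling to oocyte transcripts 5976 higher and 11158 lower, which moved the median log2 fold change of all transcripts from 0.16 to -0.35. Under that scaling the 3 Nr5a2 transcripts were at -3.71, -4.51 and -2.75 for Nr5a2-205, Nr5a2-203 and Nr5a2-201. In the authors' deposited table the log2 fold changes were -3.74 for Nr5a2-205 (SE 0.277), -4.61 for Nr5a2-203 (SE 0.355) and -2.17 for Nr5a2-201 (SE 0.309). The test score in that table has the opposite sign to its log2 fold change, and the directions given are those of the fold change.

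**Figure D2:**
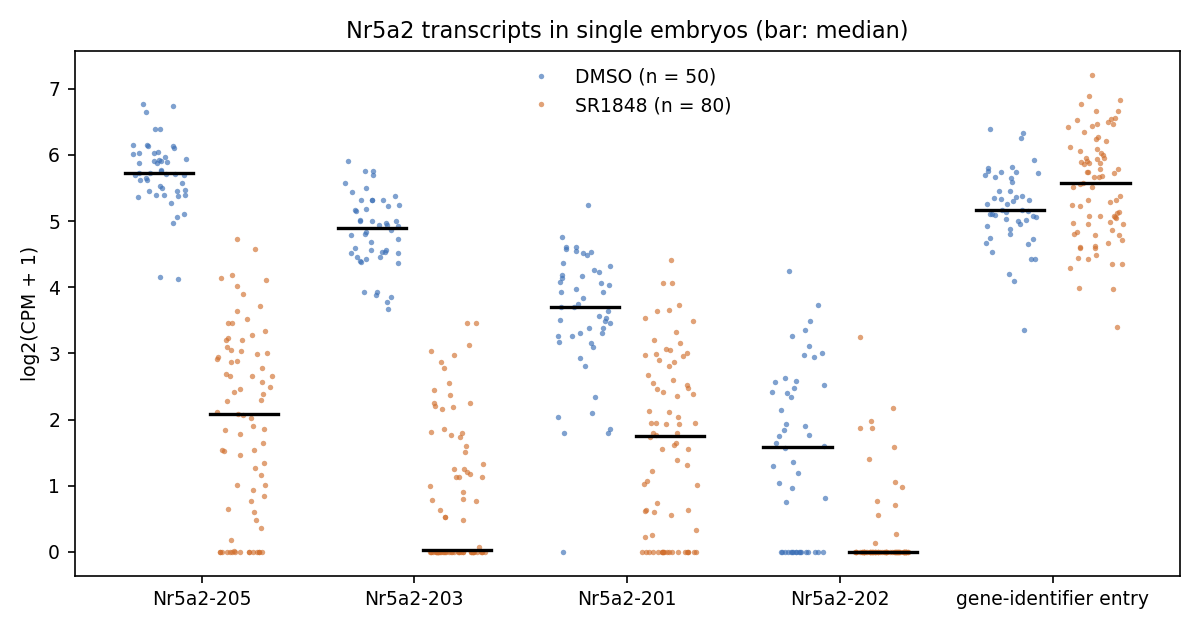
Level of 4 Nr5a2 transcripts and of the entry under the gene identifier in each embryo, as log2(CPM + 1), with 50 DMSO embryos in blue, 80 SR1848 embryos in orange and the median of each group as a bar. The groups do not overlap for Nr5a2-203, overlap in few embryos for Nr5a2-205 and overlap widely for Nr5a2-201 and the entry.

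The minor forms failed the filter on low counts and have no test in the main comparison. Nr5a2-202, which encodes the same protein as Nr5a2-205 from a downstream start, had at least 1 estimated count in 33 of 50 controls and in 13 of 80 treated embryos. Its mean was 3.08 ± 3.79 CPM in controls and 0.351 ± 1.17 CPM with SR1848. With no filter, edgeR gave it a log2 fold change of -3.04 (SE 0.513, adjusted p = 1.62e-07). The authors' deposited table gives -3.38 (SE 0.674). The retained intron Nr5a2-204 averaged 0.129 CPM in controls, with at least 1 count in 5 of 50. It was listed at 0 in 79 of 80 treated embryos. Nr5a2-206 averaged 0.0510 CPM in controls and 0.106 CPM with SR1848, with at least 1 count in 4 and 9 embryos. A count of 0 still allows 3 counts, which is 0.362 to 0.863 CPM in a control library and 0.378 to 1.22 CPM in a treated one, so the values of these last 2 forms are near the limit of detection. Reads carry no molecular identifiers, and this limit covers counting error only.

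The entry under the gene identifier did not follow the transcripts. Controls ran from 9.24 to 82.8 CPM with a median of 34.9, and treated embryos from 9.52 to 148 with a median of 46.5. Thus 31 of 80 treated embryos were below the control median and 14 were above every control. Its log2 fold change was 0.41 (SE 0.133, adjusted p = 0.00371). The call depended on the scaling. It was lost at 0.15 with edgeR's RLE factors (adjusted p = 0.287) and with DESeq2 (adjusted p = 0.273), and kept at 0.29 with total counts only (adjusted p = 0.0423) and at 0.68 with upper-quartile factors (adjusted p = 6.28e-06). The sign turned with oocyte-transcript scaling, at -0.06 (adjusted p = 0.791).

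**Figure D3:**
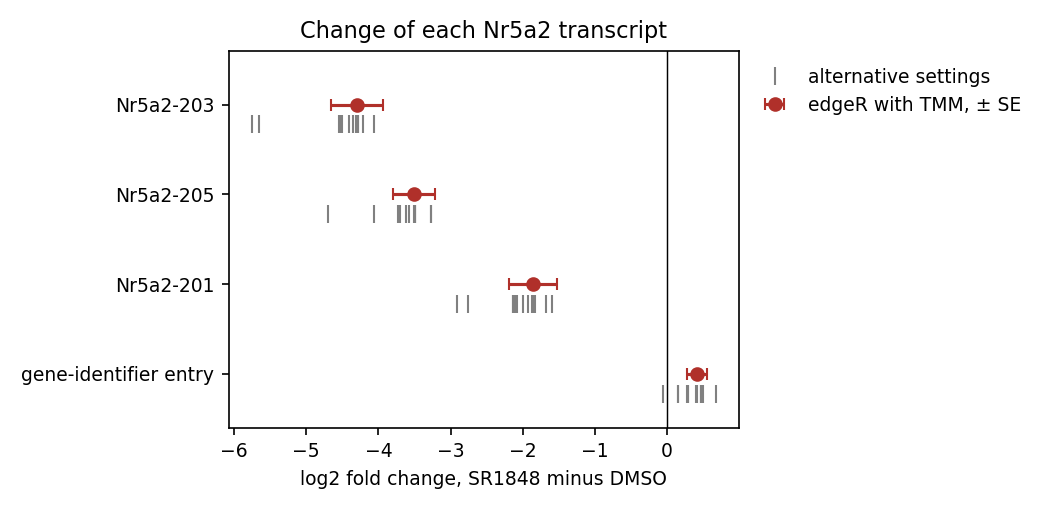
Fitted log2 fold change, SR1848 minus DMSO, of each tested Nr5a2 transcript and of the gene-identifier entry, as red points with the standard error, and the same value under 13 alternative settings as grey ticks. The ticks of the 3 transcripts lie below 0 throughout, from -5.75 for Nr5a2-203 to -1.60 for Nr5a2-201, while those of the entry lie on both sides of 0.

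Per kilobase of transcript, the scale on which levels of different transcripts can be set side by side, the control order was Nr5a2-205 at 31.4 ± 10.7 CPM per kb, Nr5a2-203 at 15.99 ± 6.10, Nr5a2-201 at 2.78 ± 1.56 and Nr5a2-202 at 0.892 ± 1.10. The ranges of mean ± SD overlapped between Nr5a2-205 and Nr5a2-203 and between Nr5a2-201 and Nr5a2-202, and the upper pair lay above the lower pair. Within an embryo, Nr5a2-205 was the highest form per length in 48 of 50 controls. With SR1848 the values were 2.76 ± 3.09 for Nr5a2-205, 0.794 ± 1.27 for Nr5a2-203, 0.764 ± 0.904 for Nr5a2-201 and 0.102 ± 0.338 for Nr5a2-202, and all 4 ranges of mean ± SD overlapped.

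The estimated shares of the Nr5a2 forms differed as well as their amount, but the share differences depended on the setting. Shares were taken in embryos with at least 20 Nr5a2 counts, which were all 50 controls and 61 of 80 treated embryos. Nr5a2-205 took 53.9 ± 7.93% of the counts in controls and 44.7 ± 25.6% with SR1848. The difference of -9.20 percentage points passed a two-sided permutation test (p = 0.0162), but it shrank to -2.94 points in embryos with at least 50 counts (29 treated embryos, p = 0.408) and to -5.89 points when counts were divided by transcript length (p = 0.134). Among embryos numbered up to 40 in the titles the difference was -11.5 points (p = 0.00749), and among those above 40 it was -4.52 points (p = 0.541).

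The shares of the 2 forms annotated to the upstream start moved apart. Nr5a2-201 took 13.97 ± 8.57% of counts in controls (0 to 39.7%) and 37.3 ± 33.03% with SR1848 (0 to 100%). Nr5a2-203 took 29.1 ± 6.68% in controls (14.8 to 46.01%) and 14.3 ± 19.1% with SR1848 (0 to 100%). The test of transcript usage, which asks whether a transcript changed relative to the other tested transcripts of its gene, called Nr5a2-201 with a log2 difference of 1.44 (edgeR diffSpliceDGE, adjusted p = 0.0026) and Nr5a2-203 with -0.99 (adjusted p = 0.0132). It did not call Nr5a2-205, at -0.20 (adjusted p = 0.703). Of the 19865 transcripts in that test, 25.1% passed. Within embryos numbered up to 40, Nr5a2-203 missed the threshold at -0.93 (adjusted p = 0.0783), and above 40 both missed it, at 1.15 for Nr5a2-201 (adjusted p = 0.490) and -1.12 for Nr5a2-203 (adjusted p = 0.332). Treated embryos with high Nr5a2-201 and low Nr5a2-203 were most common at embryo numbers from 33 to 62. The split at 40 falls inside this run, and the labels do not tie embryos to plates. The part of this run in the usage differences was not tested.

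Summed by annotated start, the upstream pair Nr5a2-201 and Nr5a2-203 took 43.1 ± 9.10% of control counts and 51.5 ± 28.03% of treated counts. Most of the sequence that only Nr5a2-201 has lies in its last exon, where reads do not show the start. The sum is therefore no measure of how much the upstream start was used. Counted per embryo, Nr5a2-205 was the largest form in 47 of 50 controls and in 33 of 61 treated embryos, and Nr5a2-201 was the largest in 1 control and in 22 treated embryos. All 3 main forms had at least 1 estimated count in 49 of 50 controls but in 24 of 80 treated embryos. Another 23 treated embryos had Nr5a2-201 and Nr5a2-205 without Nr5a2-203, 10 had Nr5a2-203 and Nr5a2-205 without Nr5a2-201, and 2 had both upstream forms without Nr5a2-205. A single form was found in the rest, Nr5a2-201 in 9, Nr5a2-205 in 6 and Nr5a2-203 in 3, except for 3 embryos with none of the 3. At 47.2 Nr5a2 counts per treated embryo on average, against 564.7 per control, 1 form at 0 need not mean that it was missing.

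**Figure D4:**
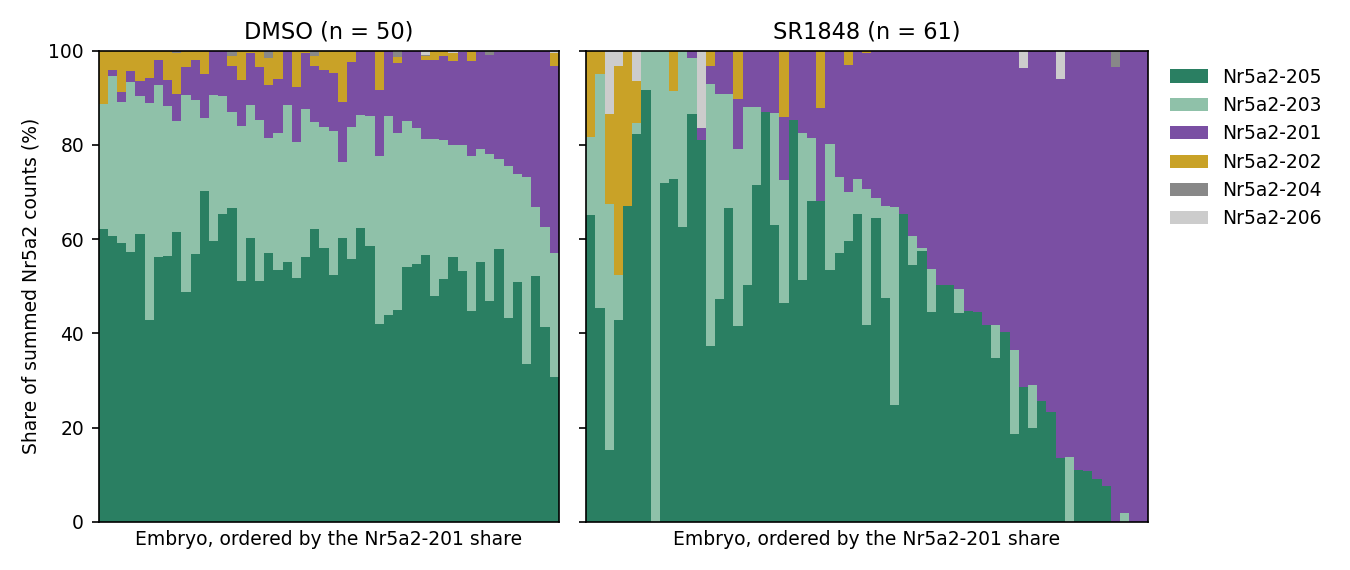
Share of the summed Nr5a2 counts on each transcript, in percent, with 1 column per embryo, for the 50 DMSO and the 61 SR1848 embryos with at least 20 counts, ordered by the Nr5a2-201 share. Nr5a2-205 is the largest share in 47 of 50 controls, while treated embryos run from no Nr5a2-201 to only Nr5a2-201.

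The spread of Nr5a2-205 between embryos was smaller with SR1848 in CPM (SD 5.43 against 18.7) and larger relative to its mean. Its coefficient of variation, the SD over the mean, was 112% among treated embryos and 34.01% among controls, a difference that passed a two-sided permutation test (p = 1e-05, the smallest that 100000 resamples can give). Counting error alone would give 21.1% at the treated depth and 5.69% at the control depth. With that part taken off, the coefficients were 110% and 33.5%. They still include any error from dividing shared reads between the Nr5a2 forms, which was not measured. For the summed Nr5a2 transcripts, where this division cancels, the coefficient of variation was 73.8% with SR1848 and 27.95% in controls, given with no test. Any division of reads with the gene-identifier entry or with other genes would not cancel there, and was not measured. A coefficient of variation can rise when a mean falls, transcripts of matched level were not compared, and the test does not separate the relative spread from the lower mean. Nr5a2-203 had 160% against 38.2% and Nr5a2-201 118% against 56.0%, given here with no test. The gene-identifier entry had 55.2% against 39.7%.

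Nr5a2-203 and Nr5a2-205, which have separate first exons, covaried between embryos in both groups. On log2(CPM + 1), Pearson's r was 0.591 in controls (permutation p = 3e-05, adjusted p = 0.00072 over 24 relations; Spearman's rho 0.598, permutation p = 1e-05) and 0.403 with SR1848 (p = 0.00018, adjusted p = 0.00216; rho 0.426, p = 0.0001). Without the 2 embryos farthest from the median, r was 0.576 and 0.346. Both forms share most of their sequence, and kallisto divides the shared reads between them, so these values are not independent measurements. Nr5a2-201 did not covary with Nr5a2-205 past the threshold in either group (r of -0.278 in controls, permutation p = 0.052, and 0.00296 with SR1848, permutation p = 0.979). Spearman's rho was -0.168 and 0.0116, and without the 2 farthest embryos r was -0.139 and 0.0513. With Nr5a2-203 its r was -0.229 and -0.279, with adjusted permutation p of 0.333 and 0.0748, and -0.153 and -0.266 without the 2 farthest embryos. In controls the gene-identifier entry had an r of 0.336 with Nr5a2-205, 0.330 with Nr5a2-203 and 0.129 with Nr5a2-201. The adjusted permutation p were 0.0748, 0.0748 and 0.681. With SR1848 these r were -0.0610, -0.126 and -0.170, and none passed the threshold in either group. Without the 2 farthest embryos the control r were 0.218, 0.297 and 0.124. Neither total count nor the number of detected genes covaried with Nr5a2-205 past the threshold (r from 0.0698 to 0.152). In treated embryos Nr5a2-205 was lower where the summed level of 47 oocyte genes was higher (r = -0.361, permutation p = 0.00094, adjusted p = 0.00752; rho = -0.335, p = 0.0023; r = -0.286 without the 2 farthest embryos). The summed Nr5a2 transcripts of the same embryos did not show this past the threshold (r = -0.0833, permutation p = 0.463; rho = -0.081, p = 0.474; r = -0.111 without the 2 farthest embryos). For Nr5a2-205 in controls that r was -0.0562 (permutation p = 0.697), and the difference between the groups was not tested.

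Genes that covaried with Nr5a2-205 were looked for among 13221 genes, separately in each group, with permutation tests. The smallest p that 100000 resamples can give is 1e-05. After adjustment over 13221 genes, a single gene could therefore not pass on its own, however strong its r. A count of 0 does not show that no gene covaried. In controls 0 genes passed (0.0%), by Pearson's r or Spearman's rho, while 1257 and 916 had an unadjusted p under 0.05. With total count and detected genes held fixed, 6 passed, and Gpx4, Rpl37rt, Eif2d and Wdr82 were among them (adjusted permutation p = 0.0441). The likest pattern among genes with a mean of at least 20 CPM was that of Gpx4, the glutathione peroxidase that removes lipid peroxides, with r = 0.684 over 50 embryos (rho = 0.467, permutation p = 1e-05, adjusted p = 0.0793). Without the 2 farthest embryos it was 0.498. Next came Rpl37rt, named as a copy of a ribosomal protein gene, at 0.571, Eif2d, a translation initiation factor, at 0.539, Zmat5, a protein of the minor spliceosome, at 0.522, and the ribosomal protein genes Rps27 and Rps9 at 0.519 and 0.507. Without the 2 farthest embryos Rpl37rt was at 0.339 (rho over all 50 embryos 0.338), Eif2d at 0.443, Zmat5 at 0.386, Rps27 at 0.370 and Rps9 at 0.515. Reads of ribosomal protein genes can be divided with near-identical copies, so those values are uncertain. The lowest r were those of Wdr82, a subunit of a histone methyltransferase complex, at -0.565, Wasl, an activator of actin branching, at -0.504, Alkbh5, an RNA demethylase, at -0.485, and Abhd13 at -0.472. Adjusted p among these 10 genes ran from 0.0793 to 0.187. In treated embryos their r lay between -0.199 and 0.179.

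In treated embryos 208 genes passed (1.57%), 103 with a positive and 105 with a negative r. This count depended on the setting, and by Spearman's rho 50 genes passed. Without the 2 embryos farthest from the median 0 passed, with 1759 at an unadjusted p under 0.05. The count was also 0 with a pseudocount of 0.1 CPM and 0 among embryos numbered up to 40, against 230 among those above 40. The highest r was that of Sgo2a, a shugoshin that protects cohesin at centromeres, at 0.487 over 80 embryos (rho = 0.473, permutation p = 1e-05, adjusted p = 0.0180). Next were Cdh1 (E-cadherin) at 0.461, the splicing regulator Hnrnpm at 0.461, the stress-response factor Atf4 at 0.457, Samd8 at 0.456 and Mfsd14a at 0.455. The lowest r were those of Ranbp9 at -0.501, Phf20 at -0.484, Brdt, a bromodomain protein of the germ line, at -0.462, and the Golgi calcium pump Atp2c1 at -0.458. All 10 genes had the same adjusted p of 0.0180, by permutation. Without the 2 farthest embryos the r of these 10 genes still had the same signs, from 0.403 to 0.448 on the high side and from -0.452 to -0.378 on the low side. In controls none of the 10 passed, with r from -0.263 to 0.132, and whether the groups differ was not tested.

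**Figure D5:**
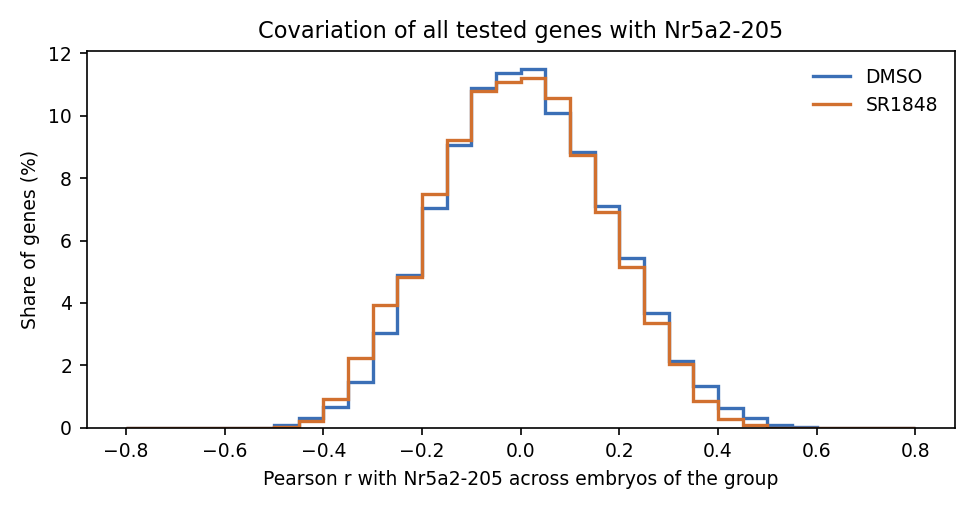
Share of the 13221 tested genes, in percent, by their Pearson r with Nr5a2-205 across the embryos of 1 group, for DMSO (blue, 50 embryos) and SR1848 (orange, 80 embryos). Both distributions are centred near 0, with medians of 0.00576 and -0.00347.

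Proteins that work with the receptor were read from a list of 25 cofactors. Of 13222 genes tested, 82.6% passed the threshold, 47.2% as higher and 35.4% as lower. Of 19 cofactors tested, 12 were higher, 5 lower and 2 did not pass, with a median log2 fold change of 0.40 against 0.30 for all genes. With oocyte-transcript scaling 5 were higher and 9 lower, with a median of -0.17 against -0.33. Ep300, the histone acetyltransferase p300, fell from 82.1 ± 24.2 to 29.4 ± 12.996 CPM (log2 fold change -1.48, SE 0.105, adjusted p = 2.42e-27). Ctnnb1, beta-catenin, which binds Nr5a2 directly, fell from 114 ± 49.6 to 34.1 ± 24.8 CPM (log2 fold change -1.74, SE 0.165). Tbl1xr1, a subunit of the NCoR corepressor, rose from 78.7 ± 36.6 to 232 ± 112 CPM (log2 fold change 1.56). Those 3 calls held under all 7 alternatives.

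Genes known as Nr5a2 targets in liver, gonad, pancreas or stem cells were read from a list of 28, of which 16 were tested. Of these, 10 were higher, 2 lower and 4 did not pass, beside 47.2% higher and 35.4% lower among all genes. Their median log2 fold change was 1.13 against 0.30 for all genes. With oocyte-transcript scaling 7 were higher and 5 lower, with a median of 0.55 against -0.33. The pluripotency factors Nanog and Pou5f1 rose, Nanog from 4.42 ± 2.10 to 24.4 ± 18.2 CPM (log2 fold change 2.46, SE 0.2002) and Pou5f1 from 23.5 ± 10.9 to 63.4 ± 25.7 CPM (1.43, SE 0.122). Socs1, an inhibitor of cytokine signalling, rose by 2.25 on the log2 scale. Apom, an apolipoprotein, fell from 24.3 ± 10.2 to 5.64 ± 3.799 CPM (log2 fold change -2.10, SE 0.156, adjusted p = 9.65e-26), and Ccne1, cyclin E1 and the most abundant of the list, from 681 ± 390 to 441 ± 346 CPM (log2 fold change -0.63, SE 0.167, adjusted p = 0.000412). In neither group did any of these cofactors or targets covary with Nr5a2-205 past the threshold, with r between -0.345 and 0.306.

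Related orphan receptors were tested for 7 of 13 members, and Nr5a1, the closest relative, failed the filter. Of the 7, 4 were higher, 1 lower and 2 did not pass (3 higher and 2 lower with oocyte-transcript scaling), a number called near the share of all genes called (82.6%). Their median was 0.63 against 0.30 for all genes. Nr6a1, the germ cell nuclear factor and the most abundant, stood at 134 ± 37.2 CPM in controls and 208 ± 59.8 CPM with SR1848 (log2 fold change 0.63, SE 0.0759), a call lost with oocyte-transcript scaling, at 0.05 (adjusted p = 0.738). Nr1d1, a receptor of the circadian clock, Rora and Esrrg rose by 1.33, 1.25 and 1.04 on the log2 scale.

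The genes around Nr5a2 were called about as often as all genes (82.6%). Within 1 Mb lie 13 protein-coding genes, all on the side of lower coordinates, and 7 were tested: 5 were higher, 1 lower and 1 did not pass (3 higher and 2 lower with oocyte-transcript scaling), with a median of 1.25 against 0.30 for all genes. The nearest, the zinc finger gene Zfp281, 212518 bases away, fell from 104 ± 38.6 to 18.99 ± 11.4 CPM (log2 fold change -2.46, SE 0.139, adjusted p = 1.97e-35). The next, the mitotic kinesin Kif14 at 311060 bases, stood at 61.7 ± 20.6 CPM in controls and rose to 150 ± 43.6 CPM (1.28, SE 0.0859). Ddx59, a helicase, and Mroh3 rose by 1.94 and 2.21. Camsap2, a microtubule minus-end protein and the most abundant, was at 0.42 and lost its call with total-count scaling at 0.16 and turned to -0.23 with oocyte-transcript scaling. On the other side the nearest genes, Ptprc and Atp6v1g3, are 1102413 and 1313290 bases away, and neither passed the filter.

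Total estimated counts ran from 2705985 to 7773631 with SR1848 and from 3150177 to 8380224 with DMSO. All 14 markers of the 2-cell stage were detected, and their summed level had a median of 1898 CPM in controls (1156 to 2482) and 3116 CPM with SR1848 (1046 to 7642). The members did not all move alike. Klf17, the most abundant, averaged 1163 ± 255 CPM in controls and 1052 ± 353 with SR1848. Eif1a averaged 116 ± 34.3 and 24.6 ± 17.3 CPM, and the other members had higher means with SR1848. Blood markers moved with the groups: the summed level of 7 had a median of 35.2 CPM in controls (6.03 to 133) and 214 CPM with SR1848 (60.6 to 665). That sum came from the alpha-globin genes Hba-a1 and Hba-a2, while the beta-globin genes Hbb-bs and Hbb-bt had 1 and 0 counts over all 130 embryos. Cumulus cell markers went the other way, with a median of 47.7 CPM in controls (26.2 to 94.0) and 22.7 CPM with SR1848 (2.76 to 59.1), most of it Amhr2. Of the 8 cumulus markers, Has2, Ptx3, Fshr and Inhba were at 0 in 43 to 49 of the 50 controls, Cyp19a1 in 24, Tnfaip6 and Runx2 in 5 each and Amhr2 in 0. Runx2 was higher with SR1848, at 3.75 ± 4.50 CPM against 1.86 ± 1.96. Sperm and spermatid markers had medians of 0.635 CPM (0 to 3.77) and 1.66 CPM (0 to 12.1), and hepatocyte markers 0 in both groups (up to 7.67 and 6.23). The part of these differences in the Nr5a2 values was not tested.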

How the data were processed

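Polyadenylated RNA of 130 single mouse embryos was read by Smart-seq2 with oligo-dT priming, per the labels. Per the submitters' processing notes, kallisto 0.46.1 was used beside bcl2fastq and Trim Galore 0.6.2, with R 3.5.1 for DESeq2 1.32.0. The builds mm10 and hg19 are listed there, with no role. The authors deposited kallisto estimated counts per transcript (119358 entries; 28.1% of values are not whole), a log2 table and their own comparison per transcript. The log2 values were made by the authors as log2(count / size factor + 1) and served only to check this. In the comparison, the authors computed log2 fold changes and p-values with DESeq2, per the file headers and notes. The authors computed its base mean, a signal averaged over all embryos, and its test score in the same run, and neither was used. The authors' deposited table assigned 117282 transcripts to genes and GENCODE M21 a further 345. The 1726 transcripts without a gene (0.735% of counts) and the 5 other entries (0.0258%) stayed out of gene sums and library sizes.

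Counts were rounded and fitted over all transcripts, or over counts summed per gene, with edgeR 4.0.16 in R 4.3.3: filterByExpr, TMM, estimateDisp, robust glmQLFit and glmQLFTest, with Benjamini-Hochberg adjustment over all features tested and a threshold of 0.05. A standard error is the absolute log2 fold change divided by the square root of F. Usage was tested with diffSpliceDGE. Permutation tests (two-sided, 100000 resamples) were used for shares, spread and correlations (Python 3.11.15, scipy 1.17.1), on unrounded counts or on log2(CPM + 1). The edgeR fits and the correlation test were tried on simulated data. Those counts had a lower dispersion than was fitted here, and the correlations were tried on normal values with no zeros. Both settings were easier than these data. Alternatives were other scalings and filters, DESeq2 1.42.0, limma 3.58.1 (voom, diffSplice), a depth covariate, leaving out 1 shallow or low-gene embryo, embryo numbers up to or above 40, and the embryo number as a block.

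The text names every Nr5a2 transcript, in each group the 6 genes with the highest and the 4 with the lowest r with Nr5a2-205 at a mean of at least 20 CPM (no Gm, Rik or unnamed genes), the 4 members of each list with the smallest p and its most abundant one, and the nearest 2 protein-coding genes on each side. A gene that this rule takes is not reported here. The lists and members were chosen with earlier results of these data known. The coordinates of the authors' deposited table are of another build than mm10 and were not used.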

Additional observations from a re-analysis of the deposited data

How the results depend on the processing

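The log2 fold changes of Nr5a2-205, Nr5a2-203 and Nr5a2-201 kept their direction and their call in all 13 alternatives, within -4.70 to -3.26, -5.75 to -4.07 and -2.92 to -1.60. The difference in relative spread of Nr5a2-205 stayed between 76.6 and 79.7 percentage points in its 4 alternatives. The counts of called features moved with the filter, which changes how many are tested: with no filter 50704 transcripts and 17711 genes were called. Usage calls were 2924 with a mean of at least 5 CPM, 3229 for embryo numbers up to 40, 1700 above 40, 9595 with limma diffSplice and 8623 with limma diffSplice and the replicate block. The usage of Nr5a2-203 missed the threshold up to 40 (-0.93) and above 40 (-1.12), and that of Nr5a2-201 above 40 (1.15). The share of Nr5a2-205 missed it with at least 50 counts (-2.94 points), per length (-5.89) and above 40 (-4.52). Genes covarying with Nr5a2-205 in controls were 6 in the partial correlation. In treated embryos they were 50 by Spearman's rho, 361 with total counts, 339 in the partial correlation, 20 for the summed transcripts, and 0 with a pseudocount of 0.1 CPM, without the 2 farthest embryos and up to 40, with 1667, 1759 and 1022 at an unadjusted p under 0.05. The gene-identifier entry reversed to -0.056 and Camsap2 to -0.23 with oocyte-transcript scaling. The entry also lost its call with RLE factors (adjusted p = 0.287), DESeq2 (0.273), limma-voom (0.0525) and embryo numbers above 40 (0.0597). The causes were not tested.

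Same-numbered embryos of the groups showed no likeness in their values. Over 50 such pairs the correlation of deviations ran from -0.227 to 0.139, with 3 over 0.1, and 1 treated embryo correlated best with its own number. This check cannot tell whether embryos with like numbers shared a plate or a drop. With the number as a replicate block, limma-voom gave -4.06 for Nr5a2-205, -5.65 for Nr5a2-203 and -2.11 for Nr5a2-201, against -4.70, -5.75 and -2.92 without it, and the share of Nr5a2-205 differed by -12.0 points over 39 pairs (p = 0.00951, permutation). All 4385 pairs of libraries of 1 group differed by more than counting error (lowest chi-square per gene 19.0005). Depth limits the treated shares, since 19 of 80 treated embryos had under 20 Nr5a2 counts.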
